A study of Mus musculus with 12 samples.

Results

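CAG150 and HM1 mouse embryonic stem cells were compared at day 4 of neuronal differentiation, across 18193 genes. The comparison took the arrays whose titles name the line and day 4, 3 of each line, which are 6 of the 12 arrays of the series. The other 6 arrays are the same lines at day 6. The HM1 line comes from a male mouse and has a defective Hprt gene, which makes it a common host for gene targeting. Per the series title the CAG150 cells carry expanded CAG repeats. As far as the study is known, the repeats were placed in Htt, which is mutated in Huntington's disease. All groups were differentiated towards neurons, and the labels name no agent, culture, passage, clone or array date and give the source as nervous system. There was 1 line of each kind, so the repeat and any other difference between the lines cannot be told apart. The labels do not say whether replicates came from separate cultures, so p-values reflect the spread among these arrays alone, and that spread may be technical.

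Embryonic stem cells that turn to a neural fate shut down the pluripotency network, lose the keratins and E-cadherin of an epithelial cell, and become neural progenitors that express Sox1, Sox2 and Pax6. Wnt, FGF, retinoid, BMP and hedgehog signals then give the progenitors a position along the head-to-tail and back-to-belly axes of the neural tube, which is read from their homeobox genes. Serum response factor, encoded by Srf, switches on actin and contractile genes and many immediate early genes through a short DNA motif, the CArG box.

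Values are array intensities that the authors scaled to a common trimmed mean. Differences are CAG150 minus HM1 of log2(intensity + 16), given with their SE, and folds are taken from them. Because 16 is added to each intensity, the fold of a dim gene is smaller than its ratio of intensities and is no bound. A gene passed, and is said to have risen or fallen, at an adjusted p under 0.05 in limma over all 45037 probe sets. Where a gene has several probe sets, the one of highest mean intensity across the 12 arrays is read. Values of single arrays are in the order of replicates 1, 2 and 3, which carries no meaning across lines.

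The median intensity of the 6 arrays lay between 19.2 and 22.8, and 0 pairs of arrays held identical values. The SD of the difference between arrays, over all probe sets on the log2 scale, was 0.271 to 0.323 within a line and 0.377 to 0.461 between lines. Neural progenitor markers, 7 of 7 measured, summed to 6945 to 8049 in HM1 and 7560 to 7660 in CAG150. These similar sums joined opposite differences. Fabp7 rose, with means of 1369 in HM1 and 2168 in CAG150, and the other progenitor markers did not pass. Sox1 (1353 and 1115), Sox2 (2521 and 2163), Sox3 (1207 and 1012) and Nes (168.1 and 124) were lower on every CAG150 array. The means of Pax6 and Msi1 were higher in CAG150. The 6 neuronal markers summed to 2839 to 3114 in HM1 and 1508 to 1769 in CAG150, where Stmn2 fell, Dcx and Map2 rose and the other 3 did not pass. The lower sum came from Stmn2, whose mean was 2108 in HM1 and 607 in CAG150. The mean of each other neuronal marker was higher in CAG150. The 6 markers of embryonic stem cells summed to 1444 to 1631 in HM1 and 479.1 to 526 in CAG150, and 5 of the 6 fell. Of 4 smooth muscle markers 3 fell, with sums of 2846 to 3352 in HM1 and 285.2 to 345 in CAG150, but Myh11, the smooth muscle myosin, read 1.062 to 7.485 in HM1 and 0.3889 to 6.406 in CAG150. The sums of visceral endoderm markers were 35.29 to 80.48 in HM1 and 39.42 to 48.57 in CAG150, and those of blood and endothelium 7.431 to 24.5 and 14 to 25.03. Fibroblast markers, among them the collagens Col1a1 and Col3a1, summed to 126.5 to 152.4 in HM1 and 120.3 to 152.6 in CAG150. In such bulk samples, fewer cells of a type and less RNA per cell cannot be told apart.

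Of the 18193 genes, 1093 (6.01%) passed, 474 higher (2.61%) and 619 lower (3.4%) in CAG150. The counts of rises and falls in the lists below stand against these shares of all genes. Some genes belong to several lists and are counted in each. The falls were larger: 174 genes (0.956%) fell at least 2-fold and 43 (0.236%) rose at least 2-fold, and at 5-fold the numbers were 17 and 0. The median fold was 1.67 among falls and 1.52 among rises, and the median difference over all genes was 0.003. Few of the genes that passed were dim, 0.681% of the dimmest of 4 equal classes by mean level against 6.22%, 9.85% and 7.28% of the brighter classes in turn. The values of the lines did not overlap for any of the 1093 genes that passed, and did not overlap for 26.9% of all genes. Of the 675 genes that passed and have several probe sets, 251 (37.2%) had another probe set that passed in the same direction, and 1, Emb, had one that passed in the opposite direction. With the arrays centred on their medians, 284 genes rose and 712 fell, and with the mean of all probe sets of a gene 749 rose and 640 fell, so the balance of rises and falls is not fixed. The number of genes that passed was 706 without HM1 replicate 2 and 659, 674 and 698 without CAG150 replicates 1, 2 and 3.

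**Figure D1:**
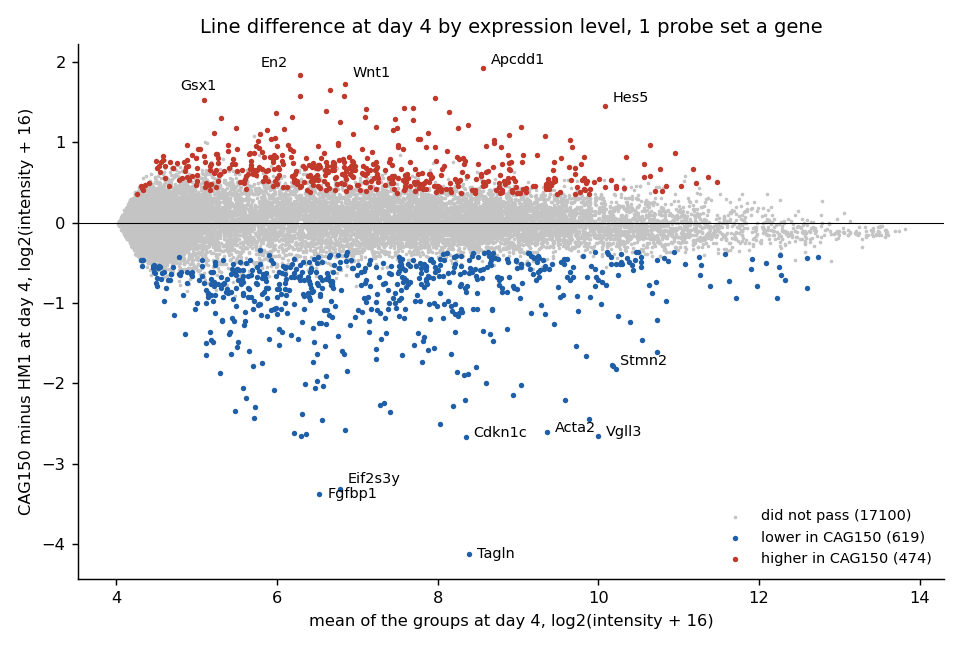
The difference CAG150 minus HM1 at day 4 of log2(intensity + 16) is plotted for 18193 genes against the mean of both lines, with the 474 genes that rose in red and the 619 that fell in blue. The falls reach -4.13 for Tagln while the largest rise is 1.92 for Apcdd1.

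The largest fall was of Tagln, a gene of the contractile cytoskeleton. Of a list of 27 genes of actin, actin-binding proteins and their regulators, 17 fell and 0 rose, and the median difference was -0.79 against 0.003 over all genes. Of 4 muscle actins 3 fell, and of 13 proteins that bind actin in the contractile apparatus 9 fell. The promoters of some of these genes carry the CArG box, the binding motif of serum response factor. The 250 bases before the RefSeq start site (GRCm38.p6) are shown for some genes of this list. These are the 3 of the list with such a box that fell most, and Srf itself. The sequences run 5′ to 3′ on the strand of the gene, with the CArG boxes in capitals.
Acta1, chr8:123894776-123895025, minus strand: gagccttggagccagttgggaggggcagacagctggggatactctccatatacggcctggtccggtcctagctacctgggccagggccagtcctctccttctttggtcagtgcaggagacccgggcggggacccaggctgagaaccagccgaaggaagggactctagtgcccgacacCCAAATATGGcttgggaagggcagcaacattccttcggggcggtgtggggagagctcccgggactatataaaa
Cnn2, chr10:79988350-79988599, plus strand: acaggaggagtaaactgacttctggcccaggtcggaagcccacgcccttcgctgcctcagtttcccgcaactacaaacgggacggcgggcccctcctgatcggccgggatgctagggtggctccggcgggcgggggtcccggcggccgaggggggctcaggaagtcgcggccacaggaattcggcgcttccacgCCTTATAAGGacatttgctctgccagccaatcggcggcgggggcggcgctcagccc
Actc1, chr2:114052876-114053125, minus strand: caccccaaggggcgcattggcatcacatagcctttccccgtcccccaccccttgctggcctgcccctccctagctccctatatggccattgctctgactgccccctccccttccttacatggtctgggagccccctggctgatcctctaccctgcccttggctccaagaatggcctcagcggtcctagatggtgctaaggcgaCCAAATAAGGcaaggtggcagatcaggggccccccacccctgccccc
Srf, chr17:46556163-46556412, minus strand: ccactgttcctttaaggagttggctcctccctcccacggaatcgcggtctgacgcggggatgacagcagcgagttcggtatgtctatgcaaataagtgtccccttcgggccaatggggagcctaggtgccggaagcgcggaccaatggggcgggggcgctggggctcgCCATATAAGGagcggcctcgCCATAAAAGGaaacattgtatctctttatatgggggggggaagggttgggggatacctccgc
The box ends 63 bases before the start site in Acta1, 46 in Cnn2 and 37 in Actc1, and Srf has a pair, at 72 and 52 bases. The CArG box was searched on both strands, which are the same for this motif, in the 250 bases before each start site. It was found for 1.62% of the 27025 genes in the promoter table and for 207 (1.43%) of the 14452 of them that were measured here. Of the list members in the table it was found for 8 of 24 contractile genes, 2 of 22 immediate early genes and 0 of 14 genes of simple epithelium. Among genes that fell at day 4 it was found for 19 of 492 (3.86%), and among those that rose for 6 of 368 (1.63%). Of the 8 contractile genes, Fhl2 and Filip1l did not fall, and the others are counted again among the 19. Contractile genes are known targets of serum response factor, so the share in that list does not bear on the falls. A match of letters is a description and not evidence of binding.

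Tagln, the actin-binding protein transgelin, read 1319, 1391 and 1436 in HM1 and 61.3, 59.84 and 70.62 in CAG150 (17.5-fold lower, difference -4.13 ± 0.13, adjusted p = 1.2e-08). The alpha-skeletal actin Acta1 read 175.6, 189.9 and 193.4 against 12.8, 27.24 and 12.2 (6.17-fold lower, -2.63 ± 0.17, adjusted p = 2.5e-06), and CAG150 replicate 2 was the highest of the CAG150 arrays. The smooth muscle actin Acta2 read 1460, 1860 and 1505 against 261.4, 218.5 and 268.1 (6.11-fold lower, -2.61 ± 0.12). In each of these genes every HM1 array was at least several-fold above every CAG150 array. The cardiac actin Actc1 fell by 1.74 ± 0.22 and the calponins Cnn1 and Cnn2, which bind actin and restrain myosin, fell by 2.18 ± 0.24 and 2.15 ± 0.13. Cnn1 was uneven in CAG150, at 18.43, 0.5041 and 3.335. Cnn3, the third calponin, did not pass (-0.24 ± 0.09, adjusted p = 0.18), and 1 of its 6 probe sets passed as higher. Vgll3, a cofactor of TEAD transcription factors, read 2551, 2601 and 2407 against 477.8, 377.9 and 322.5, and all 3 of its probe sets fell.

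Falls were measured in several classes of the actin apparatus. Tropomyosin Tpm1 fell by 1.82 ± 0.09, the myosin light chain Myl9 by 1.65 ± 0.13, caldesmon Cald1 by 1.21 ± 0.10 and vinculin Vcl, which ties actin to adhesions, by 1.10 ± 0.11. Srf itself read 283.5, 320.5 and 283.8 in HM1 and 165.2, 173.8 and 193 in CAG150 (-0.69 ± 0.13, adjusted p = 0.0099). Its cofactor Mrtfa had a difference of 0.01 ± 0.17 and Myocd, the cofactor of muscle, read 1.132 to 8.258 in HM1 and 0.6809 to 11.09 in CAG150, so neither passed. Smtn and Lmod1, other genes of smooth muscle, did not pass either, with differences of 0.03 ± 0.12 and -0.03 ± 0.11.

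**Figure D2:**
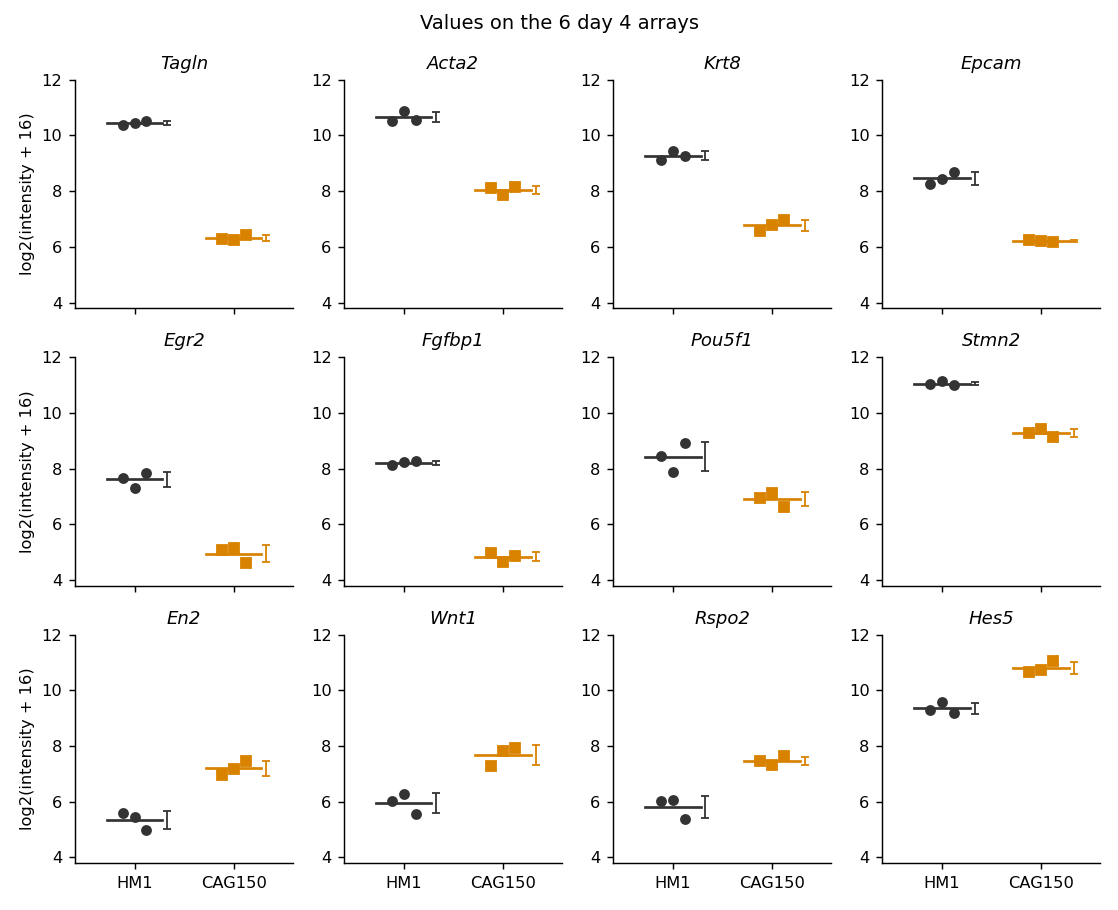
Each panel gives log2(intensity + 16) of 1 gene on the 6 day 4 arrays, HM1 as black circles and CAG150 as orange squares, with a line at the mean and a bar of ±1 SD beside it (n = 3). For each of the 12 genes the arrays of the lines do not overlap, and Pou5f1 in HM1 spreads from 220.4 to 468.2 in intensity.

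Immediate early genes, which growth factors and serum switch on within minutes, also held falls. Of 29 genes, 12 fell and 0 rose, with a median difference of -0.41. The 12 falls became 8 at the lowest without 1 array. Egr2, a zinc finger factor of this class and of the hindbrain, read 187.4, 143.3 and 213.3 in HM1 and 17.96, 19.85 and 8.12 in CAG150 (6.32-fold lower, -2.66 ± 0.24, adjusted p = 4.6e-05). Gadd45b, a stress response gene, fell 5.11-fold from 83.47, 94.79 and 74.63 to 2.313, 0.8751 and 8.202. Fos, a subunit of the AP-1 complex, fell 3.02-fold from 71.82, 63.56 and 78.96 to 9.395, 14.5 and 15.06. Of the AP-1 factors Fosl2 (-1.04 ± 0.15) and Jun (-0.80 ± 0.13) also fell, while Jund, Junb and Fosb did not pass. The matrix protein Ccn1 fell by 1.47 ± 0.17 and the zinc finger factor Klf6 by 1.37 ± 0.14, with 4 of 5 Klf6 probe sets lower. Other members did not follow: Ier2 had a difference of 0.33 ± 0.11 (adjusted p = 0.11), Myc of -0.09 ± 0.13 and Mcl1 of -0.17 ± 0.11, although 2 of the 6 Mcl1 probe sets fell.

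FGF signalling through the kinase ERK, which drives embryonic stem cells out of pluripotency, was measured by 34 genes, of which 4 rose and 5 fell. Fgfbp1, a carrier that frees FGFs from the matrix, read 265.4, 284.6 and 291.3 in HM1 and 15.44, 9.292 and 13.13 in CAG150 (10.4-fold lower, -3.38 ± 0.15, adjusted p = 1.7e-07). Its relative Fgfbp3 went the other way, from 547.1, 607.2 and 485.9 to 1110, 1102 and 1180 (2.04-fold higher, adjusted p = 0.0007). The ligand Fgf5, a mark of the epiblast, fell by 1.65 ± 0.21 and Fgf15 by 0.80 ± 0.13. Among feedback genes that ERK induces, the phosphatases Dusp5 and Dusp6 fell by 1.85 ± 0.25 and 0.86 ± 0.13, whereas Spry1 and Il17rd rose and 10 of 14 did not pass. Fgf13, an intracellular member of the family, had a difference of 0.05 ± 0.09. The 4 rises became 2 without HM1 replicates 2 or 3 or without any of the CAG150 arrays.

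Most genes of simple epithelium fell. Of 22 genes, 17 fell and 0 rose, and the median difference of -1.09 was the lowest of the 34 lists. The keratins Krt8 and Krt18, which pair into the filaments of simple epithelia, read 546.4, 682.4 and 591.6 against 78.48, 94.89 and 107.8, and 508, 650.6 and 519.7 against 131.7, 139.5 and 156.1. Krt8 was 5.69-fold lower (-2.51 ± 0.18) with all 3 probe sets lower, and Krt18 3.62-fold lower (-1.86 ± 0.13). The cell adhesion protein Epcam fell from 286.3, 333.7 and 392.5 to 59.64, 58.25 and 55.96 (4.75-fold, adjusted p = 8e-06). E-cadherin, Cdh1, fell from 583.6, 650.3 and 624.3 to 185.7, 155.1 and 131.6 (3.69-fold, adjusted p = 2.7e-06). The transcripts of these 4 genes were lower on every CAG150 array than on any HM1 array. Of 12 junction genes 10 fell, among them the tight junction claudins Cldn4, Cldn6 and Cldn7 (by 1.87 ± 0.19, 1.75 ± 0.22 and 1.78 ± 0.13) and the desmosomal Dsp (by 1.64 ± 0.12). Esrp1, a splicing factor of epithelia, fell by 1.63 ± 0.17. Ocln, another tight junction gene, did not (-0.04 ± 0.19).

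N-cadherin, Cdh2, which neural cells carry in place of E-cadherin, had a difference of 0.14 ± 0.09 (adjusted p = 0.46). Among 27 cadherins and protocadherins 4 (14.8%) rose and 2 (7.41%) fell, against 2.61% and 3.4% of all genes. Cdh8 and Cdh7, adhesion proteins of regional neural populations, rose from 3.519, 2.953 and 8.465 to 27.22, 24.35 and 23.25 and from 11.73, 14.76 and 15.31 to 44.88, 52.31 and 31.93. The other rises were Cdh11 (0.42 ± 0.11) and Pcdh8 (0.51 ± 0.09), and Pcdh19 fell by 0.46 ± 0.10. Cdh8 and Cdh11 lie on chromosome 8, whose genes were higher as a whole. The 4 rises became 2 without CAG150 replicate 2, and the 2 falls became 1 without any of the HM1 arrays or without CAG150 replicates 1 or 2.

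In a joint list of calcium-binding annexins, S100 proteins and galectins 11 of 20 genes fell and 0 rose, with a median difference of -0.63. These were 7 of 9 annexins, 2 of 7 S100 proteins and 2 of 4 galectins. Anxa2, which binds membranes and actin, read 183.7, 212.3 and 217.7 in HM1 and 29.11, 16.86 and 27.61 in CAG150 (5.48-fold lower), and its partner S100a10 read 362.4, 444.9 and 371.9 against 103.2, 125.9 and 91.61 (3.34-fold lower). Anxa1 and Anxa3 fell 4.18-fold and 4.10-fold. The galectins Lgals3 and Lgals1, which bind sugars on cell surfaces, fell by 1.39 ± 0.16 and 0.72 ± 0.13, and S100a6 by 1.08 ± 0.12. Of the S100 proteins only S100a6 and S100a10 passed.

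The basement membrane is the sheet of laminin and collagen IV on which epithelia and the early neural plate rest. Of 10 of its genes 7 fell and 0 rose. Sparc, a matrix protein, read 1478, 1332 and 1453 against 468.9, 454.8 and 507.6 (2.91-fold lower, -1.54 ± 0.10, adjusted p = 3.8e-06), and the linker proteins Nid1 and Nid2 fell by 1.09 ± 0.13 and 0.94 ± 0.10. Perlecan, Hspg2, fell by 0.75 ± 0.19 (adjusted p = 0.043). These are counted in a list of 31 genes of primitive and visceral endoderm, of which 10 fell, with the lipid carrier Apoe (596.1, 637.7 and 663.9 against 227.9, 250.4 and 218.1) and the uptake receptor Lrp2 (1299, 871.5 and 1039 against 478.6, 451 and 371). Of 5 endoderm transcription factors 0 passed in limma, 1 of them lower and 0 higher at an unadjusted p under 0.05. The 10 falls became 6 without HM1 replicates 1 or 2 or CAG150 replicate 3.

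Some matrix and mesoderm genes fell. Of 32 matrix genes 6 (18.8%) fell, against 3.4% of all genes, led by thrombospondin Thbs1 (1044, 1022 and 1068 against 266.4, 224.8 and 247.4, 4.05-fold lower) and the protease inhibitor Timp3, whose 4 probe sets all fell (2.22-fold for the one read here). Fibronectin, Fn1, fell by 0.68 ± 0.11, the integrin Itgb5 by 0.57 ± 0.13, the surface protein Thy1 by 0.71 ± 0.15 and the collagen chaperone Serpinh1 by 0.55 ± 0.10. In the mesoderm list 3 of 17 genes (17.6%) fell, Bmp4 (-0.79 ± 0.17), Foxc1 (-0.76 ± 0.19) and Twist1 (-0.61 ± 0.12). These 3 became 1 without HM1 replicates 1 or 2 and 0 without CAG150 replicate 1. Of 13 blood and endothelial genes 0 passed in limma, 1 of them higher and 1 lower at an unadjusted p under 0.05, and Lmo2 had a difference of 0.48 ± 0.17. Of 11 glial genes 0 passed in limma, 0 also at an unadjusted p under 0.05, and Cnp had a difference of -0.06 ± 0.19.

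Pluripotency genes keep embryonic stem cells undifferentiated and are switched off on the way to neurons. Of 36, 19 fell and 0 rose, with a median difference of -0.62. Pou5f1 read 335.5, 220.4 and 468.2 in HM1 and 107.4, 124.7 and 82.92 in CAG150 (-1.52 ± 0.23, adjusted p = 0.0028), so that the HM1 arrays spread by a factor larger than that among the CAG150 arrays. L1td1, an RNA-binding protein of embryonic stem cells, was tighter, at 283.8, 241.1 and 269.5 against 37.88, 35.19 and 21.16 (5.99-fold lower, -2.58 ± 0.16). Dppa5a fell from 641.7, 680.4 and 630.5 to 161.8, 184.9 and 179.2 (3.49-fold). The stem cell markers were the most affected class, with 12 of 17 lower, among them Utf1, a chromatin factor, by 1.91 ± 0.18, and the secreted signal Nodal by 1.45 ± 0.17. Lin28a, which blocks processing of the let-7 microRNA, fell by 0.58 ± 0.13 (adjusted p = 0.026) and its relative Lin28b did not pass (0.37 ± 0.17). The other Lin28a probe set did not pass either (0.23 ± 0.29). Nanog fell by 0.84 ± 0.12 and Zfp42 by 1.08 ± 0.14, while Esrrb, at 24.45 to 34.58 in HM1, and Tfcp2l1 did not pass. Among 8 genes of DNA methylation Dnmt3l (-1.28 ± 0.11) and Dnmt3b (-0.78 ± 0.18) fell, and the maintenance enzyme Dnmt1 had a difference of -0.01 ± 0.12.

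**Figure D3:**
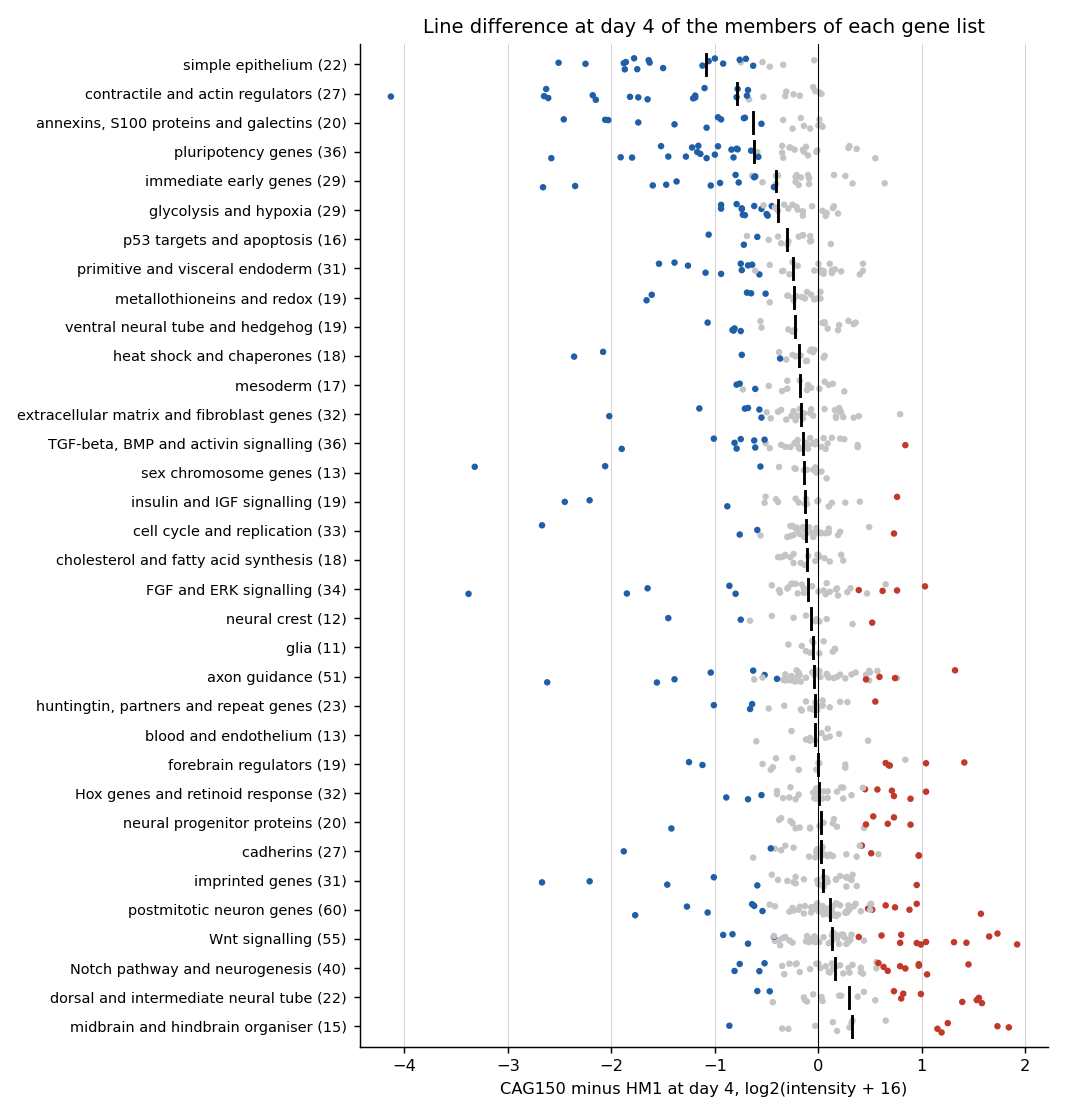
Each point is the CAG150 minus HM1 difference at day 4 of 1 measured gene (log2 scale), by list, blue where it fell, red where it rose and grey where it did not pass, with a black bar at the list's median and the number of genes in brackets. The medians run from -1.09 for simple epithelium to 0.32 for the midbrain and hindbrain organiser.

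The 4 largest rises were of Apcdd1, En2, Wnt1 and Rspo2, genes of Wnt signalling and of the midbrain. Wnts are secreted signals that stabilise beta-catenin or steer cell polarity, and R-spondins amplify them by keeping their receptors on the surface. Of 55 genes of the pathway 12 rose and 4 fell, with a median difference of 0.13. Among 12 ligands 5 rose and 0 fell. Wnt1 read 49.83, 60.72 and 30.95 in HM1 and 138.7, 212.3 and 226.6 in CAG150 (3.31-fold higher, 1.73 ± 0.24, adjusted p = 0.0012). Wnt5a, the main ligand of the branch without beta-catenin, read 37.59, 23.43 and 28.9 against 80.97, 91.16 and 124.5 (2.49-fold), and 3 of its 4 probe sets rose. HM1 replicate 3 was the lowest array for Wnt1 and for En2, Rspo2, Pax3 and Pax7 as well. Wnt7b, Wnt8b and Wnt5b rose by 0.99 ± 0.15, 0.80 ± 0.18 and 0.61 ± 0.13.

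Among R-spondins and their receptors 3 of 9 rose: Rspo2 (48.83, 50.71 and 25.15 against 158.4, 143 and 181.7, 3.13-fold), Rspo3 (22.59, 21.07 and 23.39 against 56.67, 57.52 and 60.43, 1.94-fold) and the receptor Lgr5 (25.87, 30.3 and 22.92 against 75.07, 71.39 and 66.81, 2.06-fold). Each was higher on every CAG150 array. The receptors went both ways, with Fzd3 (0.39 ± 0.10) and Fzd10 (0.79 ± 0.19) higher and Fzd7 (-0.92 ± 0.10) and Fzd5 (-0.83 ± 0.14) lower. Apcdd1, a membrane inhibitor of Wnt signalling, was the largest rise of all genes, from 158.6, 255.2 and 129.1 to 585.6, 726 and 820 (3.79-fold, 1.92 ± 0.22), with 5 of 6 probe sets higher. Nkd1, an inhibitor that the pathway induces, rose from 99.31, 111.7 and 92.02 to 329.7, 272.1 and 296.8 (2.70-fold), and it lies on chromosome 8. The target Axin2, which reads beta-catenin activity in most tissues, did not pass (0.30 ± 0.14, adjusted p = 0.28), nor did Sp5 or Lef1. The secreted inhibitors Sfrp1 and Frzb fell by 0.68 ± 0.14 and 0.43 ± 0.10. The 4 falls became 2 without HM1 replicates 1 or 2 or CAG150 replicates 2 or 3. The 12 rises of the pathway became 8 at the lowest without 1 array, and 7 at the lowest over all alternatives.

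The midbrain and hindbrain organiser is the band of neuroepithelium that patterns both regions, with Otx2 in front of it and Gbx2 behind. Of 15 of its genes 5 rose and 1 fell. The number of rises did not drop below 5 without 1 array, but was 2 at the lowest over all alternatives. The engrailed factors En2 and En1 read 32.28, 28.17 and 15.82 against 107.7, 127.4 and 161.1 (3.59-fold, 1.84 ± 0.17, adjusted p = 6e-05) and 87.4, 115.2 and 100.8 against 212.7, 233.6 and 284.2 (2.21-fold). Otx2 rose from 331.9, 352.9 and 312.6 to 800.1, 703.3 and 843.9 (2.29-fold, adjusted p = 0.0009) and Otx1 from 63.49, 63.61 and 40.85 to 151.2, 156.6 and 152.4. Gbx2 was the member that fell, from 394.5, 464.2 and 415.3 to 230.8, 222 and 223.6 (1.82-fold, adjusted p = 0.00077). Thus the anterior factor was higher and the posterior factor lower on every CAG150 array. The organiser's signal Fgf8 read 62.41, 64.79 and 42.71 against 94.6, 87.17 and 110.4 and did not pass (adjusted p = 0.075). Meis2 had a difference of -0.29 ± 0.14 and did not pass, although 1 of its 4 probe sets fell (-0.58 ± 0.10).

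Forebrain regulators were mixed, 5 higher and 2 lower of 19. The doublesex-related factors of the dorsal forebrain rose, Dmrt3 from 80.33, 80.14 and 46.19 to 175.7, 223.6 and 220.9 (2.66-fold), Dmrta2 by 1.04 ± 0.15 and Dmrta1 by 0.69 ± 0.14, and so did Nr2e1 (0.68 ± 0.12), which maintains neural stem cells. Lhx2 and Fezf2, which specify cortex and anterior forebrain, fell from 200.9, 242.6 and 196.3 to 98.16, 94.85 and 75.46 (2.17-fold) and from 107.3, 132.9 and 145.4 to 44.86, 40.49 and 48.38 (2.37-fold). The 5 rises became 3 without HM1 replicate 3 or CAG150 replicates 1 or 3.

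Genes that mark positions on the back-to-belly axis were read in a dorsal and intermediate list and a ventral list. Of 22 dorsal and intermediate regulators 8 rose and 2 fell, with a median difference of 0.30. The dorsal factors Pax3 and Pax7 read 147.2, 157.8 and 91.42 against 376.5, 423.9 and 427.8 (2.93-fold, all 3 probe sets) and 55.22, 57.35 and 23.36 against 120.8, 148.1 and 148.1 (2.62-fold, both probe sets). Gsx1, a factor of intermediate progenitors, was near the bottom of the scale in HM1, at 1.75, 6.416 and 4.132, and read 42.51, 33.58 and 50.04 in CAG150 (difference 1.53 ± 0.15). Mab21l2 rose 2.98-fold, Zic1 from 272.6, 305.3 and 255.1 to 533.9, 502.7 and 668.8 (1.98-fold) and Irx3, on chromosome 8, from 673.8, 682.1 and 639.5 to 1182, 1157 and 1227 (1.77-fold). Dbx1, which marks the middle of the tube, rose by 0.73 ± 0.12. Pax6 had a difference of 0.20 ± 0.10 and did not pass (adjusted p = 0.34). The 2 falls, of Zic5 and Olig3, became 0 without any of the HM1 arrays or without CAG150 replicate 2, and 1 without CAG150 replicates 1 or 3.

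Of 19 hedgehog and ventral genes 5 fell and 0 rose. Sonic hedgehog, Shh, the ventral signal, read 43.43, 30.23 and 35.7 against 14.99, 11.14 and 15.11 (-0.81 ± 0.16, adjusted p = 0.013). Its receptor and target Ptch1 fell from 719.7, 618.4 and 640.9 to 345.9, 382.3 and 361.4 (1.78-fold, adjusted p = 0.00083), the coreceptor Cdon by 0.82 ± 0.15, and the floor plate and ventral factors Nkx2-9 and Nkx2-2 by 1.07 ± 0.14 and 0.75 ± 0.14. These were 3 of 10 hedgehog pathway genes and 2 of 9 ventral factors. Among the others, the ventral factor Foxa1 had a difference of 0.36 ± 0.15 (adjusted p = 0.22), and Gli3, a transcription factor of the pathway, had a difference of 0.19 ± 0.11.

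Retinoic acid sets hindbrain identity through Hox genes. Among 15 Hox genes and cofactors only Meis1 passed, from 129.8, 140.1 and 132.6 to 277.1, 294.2 and 305 (2.05-fold, adjusted p = 7.4e-05), and it lies on chromosome 11. Among 12 genes that bind or convert retinoids 4 rose and 2 fell. The binding protein Crabp2 read 2223, 2335 and 1900 against 3034, 3334 and 3239 (1.49-fold), and the degrading enzymes split, Cyp26b1 rising by 0.89 ± 0.12 and Cyp26a1 falling by 0.68 ± 0.17. Stra8, a retinoid-induced gene, rose from 3.004 to 3.015 in HM1 to 12.17 to 16.9, on the dimmest part of the scale. The receptor Rarg fell by 0.89 ± 0.19 and the orphan receptor Nr2f1 rose by 0.73 ± 0.13. The 3 falls in the list became 1 without HM1 replicate 2 or CAG150 replicates 1 or 2, and 0 without HM1 replicate 3 or CAG150 replicate 3.

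Notch signalling holds progenitors back from becoming neurons, and proneural factors push them on. Of 40 genes 9 rose and 4 fell. Hes5, the main Notch effector of neural progenitors, read 613.1, 739.9 and 563.1 in HM1 and 1576, 1677 and 2085 in CAG150 (2.74-fold higher, 1.45 ± 0.14, adjusted p = 0.00011), with both probe sets higher. Hes3 rose from 69.09, 56.68 and 57.71 to 108.6, 145.9 and 153.5. Hes1 went the other way, from 240.4, 243.6 and 241.8 to 160.8, 119.1 and 131.3 (-0.76 ± 0.13). Of 5 ligands 0 passed in limma, 1 of them higher and 0 lower at an unadjusted p under 0.05, and the median of their differences was 0.14. The inhibitors of basic helix-loop-helix factors also split, with Id3 higher (0.84 ± 0.13) and Id4 and Id2 lower (by 0.81 ± 0.10 and 0.52 ± 0.12). Of 16 proneural and commitment factors 6 rose and 0 fell, led by Neurog1 (31.79, 31.93 and 19.53 against 78.9, 85.32 and 58.7, 2.07-fold) and Nhlh2 (35.34, 38.04 and 29.97 against 85.74, 83.7 and 78.7, 1.96-fold). Tal2, a related factor of midbrain neurons that is in no list, was among the largest rises (1.42 ± 0.16).

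Progenitor and neuronal genes showed no common direction. Of 20 progenitor proteins 5 rose and 1 fell, with a median of 0.03. At an unadjusted p under 0.05 in limma, 6 were higher and 6 lower, the lower ones including Sox1, Sox2 and Sox3. Fabp7, a fatty acid binding protein of radial glia, rose from 1404, 1544 and 1159 to 2229, 2218 and 2056 (1.59-fold), whereas Vim (-0.08 ± 0.11) and Nes (-0.38 ± 0.14, adjusted p = 0.18) did not pass. The POU factors split: Pou3f1, an early neural and epiblast gene, fell from 335.8, 328.2 and 399.8 to 132.2, 104.1 and 131.6 (2.68-fold) while Pou3f3 and Pou3f2 rose by 0.89 ± 0.12 and 0.73 ± 0.17. Sox9, which lies on chromosome 11, and Ptprz1 rose by 0.53 ± 0.13 and 0.46 ± 0.11. The 5 rises became 2 without HM1 replicates 2 or 3 or CAG150 replicates 2 or 3, and 3 without CAG150 replicate 1.

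Of 60 genes of postmitotic neurons 7 (11.7%) rose and 6 (10%) fell, against 2.61% and 3.4% of all genes. The median difference of the list was 0.11. Stmn2, a regulator of growth cone microtubules, read 2081, 2220 and 2023 in HM1 and 608.8, 662.9 and 549.2 in CAG150 (3.42-fold lower, -1.77 ± 0.10, adjusted p = 1.8e-06), and both probe sets fell. Rbfox3, the neuronal antigen NeuN, read 31.67, 73.69 and 47.13 against 180.1, 148.8 and 204.2 (2.98-fold higher), and it lies on chromosome 11 and has 2 other probe sets that did not pass. Stmn2 and Rbfox3 thus went opposite ways on every array. With Stmn2 fell the G protein subunit Gng3 (217.2, 219.2 and 237.2 against 109.7, 92.35 and 94.9, 2.10-fold) and the kinase Mapk10 (-1.27 ± 0.24), and with Rbfox3 rose Dpysl4 (0.95 ± 0.12), the granin Scg3 (0.88 ± 0.10), Dcx (0.74 ± 0.10) and Map2 (0.48 ± 0.10). Tubb3, the standard neuronal tubulin, did not pass (543, 570.6 and 477.8 against 628.2, 668.6 and 516, adjusted p = 0.58), nor did Tuba1a (-0.13 ± 0.11). The host transcript of the neuronal microRNA miR-124, Mir124-2hg, which was chosen after its values were seen, rose 2.45-fold (1.29 ± 0.11, adjusted p = 2.9e-05).

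The largest falls among axon guidance genes were of the secreted semaphorins Sema3e and Sema3c, signals that turn growing axons and vessels. Sema3a also fell, by 0.52 ± 0.13. The other semaphorins measured did not pass, with Sema3f at 0.50 ± 0.23. Of 51 genes 4 rose and 7 fell. Sema3e fell from 155.7, 136.4 and 212.1 to 12.09, 12.2 and 16.49 (6.14-fold, all 4 probe sets) and Sema3c from 448.2, 398.1 and 386.7 to 111.1, 131.5 and 143.8 (2.96-fold, both probe sets). Nrp2, a receptor of some secreted semaphorins, and the ephrin receptor Epha2 fell by 1.04 ± 0.19 and 1.39 ± 0.20. The netrin receptor Dcc rose from 70.59, 87.74 and 55.11 to 194.7, 209.7 and 193.2 (2.50-fold) and Robo3, which lets axons cross the midline, from 0.832, 10.76 and 3.546 to 19.98, 16.25 and 19.11. Efnb2 had a difference of -0.06 ± 0.09. The 4 rises became 1 without HM1 replicate 3 or CAG150 replicates 1 or 3.

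Growth control genes held several of the largest falls. Cdkn1c, an imprinted inhibitor of cyclin-dependent kinases that is read from the maternal copy, went from 854.3, 828.4 and 734.4 to 99.07, 111.3 and 128.6 (6.39-fold lower, -2.67 ± 0.11, adjusted p = 1.5e-07). Grb10, an imprinted adaptor that damps insulin receptor signalling, went from 1503, 1669 and 1714 to 298, 298.2 and 437 (4.63-fold, all 3 probe sets), although it lies on chromosome 11. Plagl1, an imprinted zinc finger factor, fell from 2683, 2299 and 2412 to 841.7, 947 and 858.7 (2.76-fold). Of 31 imprinted genes 5 (16.1%) fell and 1 (3.23%) rose, against 3.4% and 2.61% of all genes. The other falls were Phlda2 (-1.01 ± 0.15) and Mirg (-0.59 ± 0.11) and the rise was Nap1l5 (0.95 ± 0.18). Mest had a difference of 0.05 ± 0.11.

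In the insulin-like growth factor family, the binding protein Igfbp2 read 2142, 2415 and 2013 against 344.3, 393.6 and 421.6 (5.48-fold lower, adjusted p = 2.6e-06). Igfbp5 fell by 0.88 ± 0.16 and Igfbp4 rose by 0.76 ± 0.15, with 5 of 6 probe sets higher, on chromosome 11. Igf2bp1 had a difference of 0.10 ± 0.11. Of 36 genes of TGF-beta, BMP and activin signalling 8 (22.2%) fell and 1 (2.78%) rose, against 3.4% and 2.61% of all genes. The rise, of Id3, and the falls of Id2, Id4 and Bmp4 are also counted in lists above. The activin antagonist follistatin, Fst, read 610.1, 601 and 592.8 against 173.8, 147.6 and 128.4 (3.74-fold lower, adjusted p = 2.1e-06), and the SMAD corepressor Skil fell 2.01-fold and the pseudoreceptor Bambi 1.68-fold. The receptor Tgfbr1 had a difference of 0.21 ± 0.10. The 8 falls became 4 without HM1 replicate 1 and 5 without HM1 replicate 2 or CAG150 replicates 2 or 3.

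Glycolytic genes fell by smaller steps. Of 14 glycolytic enzymes and transporters 10 fell and 0 rose. Lactate dehydrogenase, Ldha, read 6432, 7541 and 5789 against 2934, 3412 and 3957 (1.92-fold lower, adjusted p = 0.0034), and aldolase Aldoa 4544, 5021 and 4378 against 2184, 2468 and 2607 (1.92-fold, 4 of 5 probe sets). Pgk1, Tpi1 and Pfkl fell by 0.55 ± 0.10, 0.73 ± 0.13 and 0.74 ± 0.15 and the lactate exporter Slc16a3 by 0.79 ± 0.16. Of 15 other hypoxia response genes 2 fell, Ndrg1 and P4ha1 (-0.74 ± 0.16). The 12 falls of the joint list became 7 without HM1 replicate 2 and 6 without CAG150 replicates 1 or 2.

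Stress genes changed in a few families. The metallothioneins Mt1 and Mt2, which bind zinc and copper, read 1501, 1574 and 1786 against 546.5, 463.4 and 499.2 (3.15-fold lower) and 2863, 3162 and 2849 against 968.4, 838 and 1071 (3.06-fold lower), although they lie on chromosome 8. Of 19 genes of this redox list 5 fell, with Gsta4 (-0.65 ± 0.11), Gstm1 (-0.69 ± 0.17) and Gpx4 (-0.51 ± 0.11), and Prdx2 had a difference of 0.02 ± 0.10. The 5 became 3 without HM1 replicate 2 or CAG150 replicate 1. Of 18 heat shock genes 4 fell. The small heat shock proteins Hspb1 and Cryab fell from 357.2, 359.8 and 387.5 to 59.11, 49.55 and 68.48 (5.14-fold) and from 106.7, 127.5 and 101.3 to 10.48, 15.37 and 17.19 (4.22-fold), while the constitutive chaperone Hspa8 had a difference of -0.12 ± 0.12. The other falls were Hspb8 (-0.74 ± 0.17) and Hsph1 (-0.37 ± 0.09). The 4 falls became 2 without any of the HM1 arrays or without CAG150 replicates 1 or 2.

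Of 16 p53 targets and apoptosis genes 3 fell, Perp (-1.06 ± 0.10), Phlda3 (-0.72 ± 0.15) and the cell cycle inhibitor Cdkn1a (-0.59 ± 0.13). The other Cdkn1a probe set did not pass (-0.15 ± 0.18). Ccng1 had a difference of -0.07 ± 0.10. Over the alternatives the number of falls ran from 1 to 8. Of 17 genes of DNA replication and mitosis 0 passed in limma, 2 lower and 0 higher at an unadjusted p under 0.05, and Pcna had a difference of -0.12 ± 0.10. Of the cyclins and their partners, Ccnd2, the D cyclin of neural progenitors, rose from 1129, 1230 and 1108 to 2085, 1983 and 1743 (1.66-fold, all 7 probe sets) and Cdk6 fell by 0.76 ± 0.10. Of 18 genes of cholesterol and fatty acid synthesis 0 passed in limma, 1 higher and 5 lower at an unadjusted p under 0.05, and Scd2 had a difference of 0.00 ± 0.10. Neural crest genes were few, with Ets1 (-1.45 ± 0.15) and Erbb3 (-0.75 ± 0.16) lower and Ednrb (0.52 ± 0.10) higher of 12. These 2 falls became 1 without HM1 replicates 2 or 3 or any of the CAG150 arrays, and the rise was lost without HM1 replicate 2 or CAG150 replicate 2.

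Htt, the gene of the repeat, read 161.1, 157.9 and 138 in HM1 and 98.22, 115.7 and 99.68 in CAG150. The lines did not overlap, but the difference of -0.48 ± 0.13 missed the threshold (adjusted p = 0.054), and none of its 4 probe sets passed. The arrays do not read the length of the repeat, so no value here checks that label. Hprt read 21.97 to 26.57 in HM1 and 16.13 to 28.37 in CAG150 (-0.02 ± 0.14). Of 23 genes of huntingtin, its partners and other repeat diseases 1 (4.35%) rose and 3 (13%) fell, against 2.61% and 3.4% of all genes. Rest, the repressor of neuronal genes that huntingtin binds, fell from 373.1, 344.3 and 394.5 to 241.1, 218.8 and 235.3 (1.56-fold, adjusted p = 0.0029), with 1 of 4 probe sets passing. Bdnf, the neurotrophin, fell by 0.66 ± 0.17 (adjusted p = 0.046), with its other probe set at 0.03 ± 0.18. Hap1, a partner of huntingtin, rose by 0.55 ± 0.13, on chromosome 11, and this rise was lost without HM1 replicates 2 or 3 or CAG150 replicates 2 or 3. Atxn1, the ataxin of another repeat disease, fell 2.01-fold. Of 3 mismatch repair genes, which act on repeat length, 0 passed in limma, 0 also at an unadjusted p under 0.05, and Msh6 had a difference of -0.01 ± 0.08.

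Genes of whole chromosomes also differed between the lines. The Y-linked Eif2s3y, a translation initiation factor, read 342.7, 307.4 and 342.3 in HM1 and 17.04, 14.46 and 25.46 in CAG150 (9.99-fold lower, adjusted p = 1.5e-07), and Uty, a histone demethylase relative, 78.97, 74.24 and 91.96 against 7.552, 5.562 and 9.221 (4.17-fold lower). Kdm5d fell by 0.56 ± 0.13, while Usp9y (0.08 ± 0.18) and Zfy2 (-0.23 ± 0.18), dim in both lines, did not pass. Of 8 X-linked genes, with Ddx3x at -0.05 ± 0.11, 0 passed in limma, 0 also at an unadjusted p under 0.05. This holds for the probe set read for each gene, while 1 of 9 probe sets of Kdm5c and 1 of 4 of Zfx passed as higher.

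Chromosomes 8 and 11 held 63 and 96 of the genes that rose, together 33.5% of the rises against 13.1% of the genes. The median difference of their genes above the 40th percentile of level was 0.196 and 0.172, and on the other 17 autosomes it ran from -0.043 to 0.003. The shift ran along the whole of both chromosomes, with medians of 0.187 to 0.200 in the 5 equal stretches of the gene order of chromosome 8 and 0.130 to 0.218 in those of chromosome 11. The median fold of the genes that rose was 1.46 there and 1.57 elsewhere, and 3 genes of chromosome 8 and 8 of chromosome 11 rose at least 2-fold. The largest rises on chromosome 8 after Nkd1 were Sorbs2 (1.18 ± 0.13), Adgrg1 (1.17 ± 0.16) and Cdh8, and on chromosome 11 after Rbfox3 were Ehbp1 (1.38 ± 0.11), Taf15 (1.36 ± 0.20) and Otx1. Both also held genes that fell far, on chromosome 8 Acta1, Cdh1, Mt1 and the secreted peptide Apela (-1.63 ± 0.22) and on chromosome 11 Grb10, Car10 (-1.97 ± 0.10), Cldn7 and Sparc. Off these chromosomes 315 genes (1.99%) rose and 577 (3.65%) fell, so the rises were fewer there. DNA copy number was not measured, and its part in these values was not tested.

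**Figure D4:**
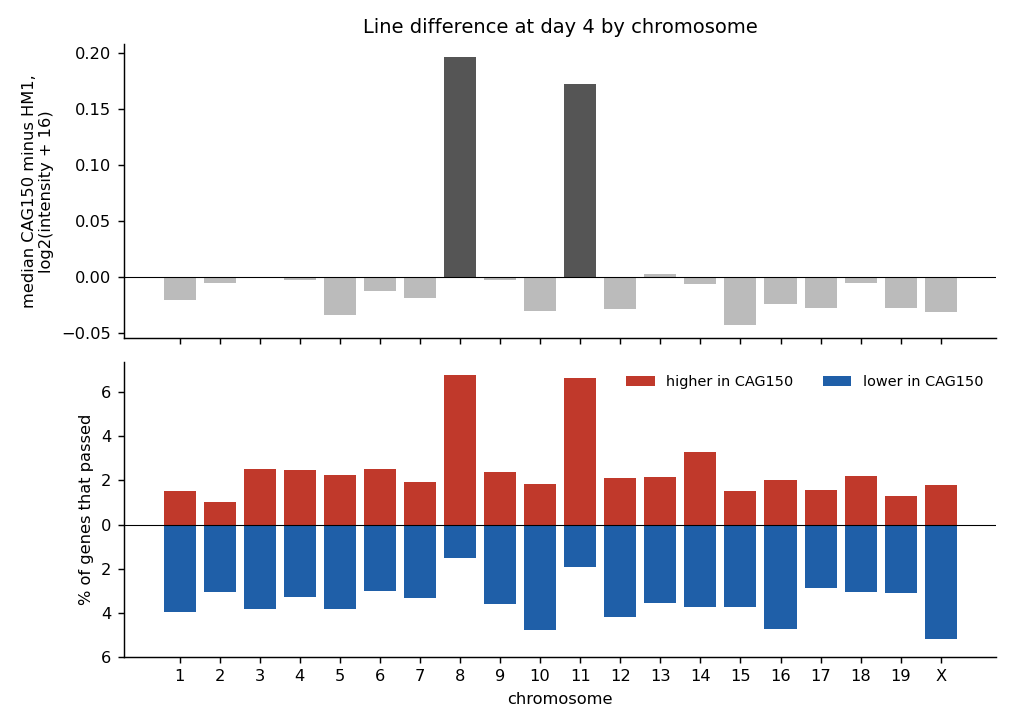
The upper bars give the median difference CAG150 minus HM1 at day 4 (log2 scale) of genes above the 40th percentile of level on each chromosome, and the lower bars the percentage of all measured genes of the chromosome that rose (red, up) or fell (blue, down). Chromosomes 8 and 11 stand at 0.196 and 0.172, with 6.76% and 6.65% of their genes higher.

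At day 6, on other arrays of the same lines, 978 of the 1093 genes (89.5%) differed in the same direction. The share of all genes with the same sign is not given, so 89.5% has no background here. Of the 1093 genes 582 passed again, 563 in the same and 19 in the opposite direction. The 582 are 53.2% of those of day 4 and 34.4% of the 1691 of day 6, which were 9.29% of all genes. Both days were read from the same fit with a shared variance for each gene, so a gene has the same SE at both (0.13 for Tagln). A gene with a small shared variance passes more readily at both days, so day 6 is no independent check of day 4. The difference between the days was tested directly as an interaction, which 181 of all genes (0.995%) passed, 86 of them among the 1093. For 45 of the 86 the sign at day 6 was opposite, for 19 the same but smaller, and for 22 the same and larger. The fall of Tagln (-5.03 at day 6) did not pass this test (adjusted p = 0.056), nor did that of Krt8, Pou5f1 or Egr2.

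The 6 genes with the largest change between days among the 1093 were Dbx1, Lhx2, Cacna2d1, Rspo3, Stmn2 and Rspo2. Dbx1 was 0.73 higher at day 4 and 2.15 lower at day 6 (interaction -2.88, adjusted p = 2.9e-05). Lhx2, Cacna2d1, a calcium channel subunit, and Stmn2 were lower at day 4 and higher at day 6 (interactions 2.39, 2.39 and 2.15). The differences of Rspo3 and Rspo2 grew from 0.95 to 3.32 and from 1.65 to 3.75. En2 and Apcdd1, among the largest rises of day 4, stood at 0.36 and 0.09 at day 6, and neither passed there. Acta2 and Anxa1 lay further apart at day 6 (-4.03 and -3.40), and Fgfbp1, Igfbp2 and Cdh1 less far (-1.47, -0.82 and -0.74).

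**Figure D5:**
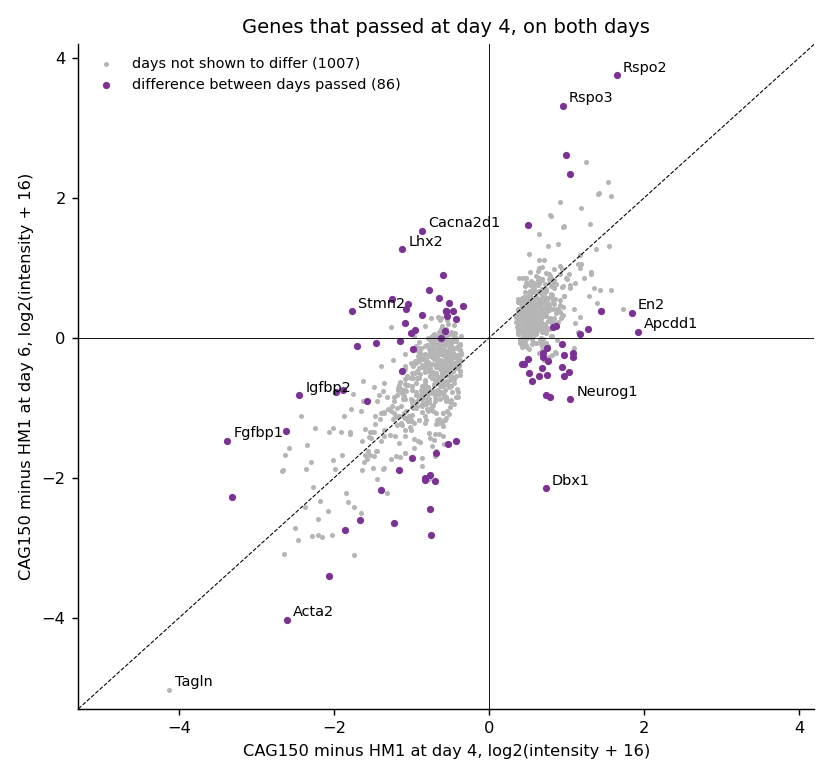
The difference CAG150 minus HM1 at day 6 is plotted against that at day 4 (log2 scale) for the 1093 genes that passed at day 4, with the 86 that also passed the test of the difference between days in purple and equality on the dashed line. Most points have the same sign at both days, while Dbx1, Lhx2, Cacna2d1 and Stmn2 change sign.

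Of 10092 probe sets without a single gene symbol 214 (2.12%) passed, 114 higher (1.13%) and 100 lower (0.991%). The largest falls were of probe sets 1426438_at (242.4, 223.6 and 243.4 against 11.75, 13.82 and 15.87), 1452077_at (5.06-fold) and 1459253_at (3.46-fold). The largest rises were of 1455537_at (98.34, 58.13 and 99.52 against 350.8, 282.7 and 247.3), 1442569_at (2.71-fold) and 1443744_at (2.65-fold). In the 17 lists in which no gene rose, 12 of 370 entries were higher at an unadjusted p under 0.05.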

How the data were processed

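Affymetrix expression arrays of HM1 and CAG150 cells at days 4 and 6, 3 per group, were read from the authors' deposited series table. The authors deposited linear intensities, scaled before deposit to a 2% trimmed mean of 150 on every array, as the values themselves show. No source used here names the software. The number of arrays limits the precision.

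From 45101 probe sets, 64 controls were left out. log2(intensity + 16) of the other 45037 was fitted in limma 3.58.1 (R 4.3.3) with lmFit and eBayes as 4 group means over 12 arrays, and p-values were adjusted by Benjamini-Hochberg over all of them. The interaction is the line difference at day 6 minus that at day 4. Symbols came from GEO's platform annotation: 34945 probe sets had 1 symbol, 932 several and 9160 none. The fit was tested on simulated data.

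Named genes were the largest changes of all genes, of each list (up to 6) and of chromosomes 8 and 11, with 1 high-intensity member a list. Further list members were named after their values were seen. The groups, gene lists and rules were chosen with earlier results of these data known. Alternatives were other scalings, pseudocounts of 1 and 64, a filter at the 40th percentile, the 6 arrays alone, a variance trend, a replicate block, gene averages, leaving out chromosomes, and leaving out each array. Promoters are from RefSeq (GRCm38.p6).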

Additional observations from a re-analysis of the deposited data

Results flagged for a closer look

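These genes of the report differed between day 4 and day 6 in the direct test of the line difference (limma, interaction adjusted p under 0.05, which 0.995% of all genes passed). Each is given with its interaction and with the CAG150 minus HM1 differences at day 4 and day 6, all on the log2 scale, and no explanation was tested. At day 4, Fgf13 and Lef1 did not pass, and their day 4 values are given without a call. At day 6, Apcdd1, Cdh11, En2, Fezf2, Frzb, Gbx2, Hes3, Hes5, Il17rd, Irx3, Plagl1 and Skil did not pass, so for these the sign at day 6 is that of the value alone.

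The difference was above 0 at day 4 and below 0 at day 6 for Ccnd2 (-1.56, from 0.73 to -0.82), Cdh11 (-0.79, from 0.42 to -0.37), Dbx1 (-2.88, from 0.73 to -2.15), Ednrb (-1.02, from 0.52 to -0.50), Fgfbp3 (-1.52, from 1.03 to -0.49), Hes3 (-1.51, from 0.97 to -0.55) and Il17rd (-1.08, from 0.76 to -0.33). This group also holds Neurog1 (-1.93, from 1.05 to -0.88).

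The difference was below 0 at day 4 and above 0 at day 6 for Cacna2d1 (2.39, from -0.86 to 1.53), Fezf2 (1.80, from -1.25 to 0.55), Frzb (0.69, from -0.43 to 0.27), Gbx2 (1.19, from -0.86 to 0.33), Gng3 (1.47, from -1.07 to 0.41), Id2 (1.02, from -0.52 to 0.50) and Lef1 (1.48, from -0.09 to 1.39). The same change of sign was measured in Lhx2 (2.39, from -1.12 to 1.27), Pcdh19 (0.85, from -0.46 to 0.39), Skil (1.08, from -1.01 to 0.07), Stmn2 (2.15, from -1.77 to 0.38) and Zic5 (1.49, from -0.59 to 0.90).

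The difference had the same sign and was smaller at day 6 for Apcdd1 (-1.83, from 1.92 to 0.09), Car10 (1.21, from -1.97 to -0.77), Cdh1 (1.14, from -1.88 to -0.74), Eif2s3y (1.04, from -3.32 to -2.28), En2 (-1.48, from 1.84 to 0.36), Fgfbp1 (1.91, from -3.38 to -1.47) and Hes5 (-1.06, from 1.45 to 0.39). It was also smaller for Igfbp2 (1.63, from -2.45 to -0.82), Irx3 (-0.66, from 0.82 to 0.16), Plagl1 (1.40, from -1.46 to -0.07) and Sema3e (1.29, from -2.62 to -1.33).

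The difference had the same sign and was larger at day 6 for Acta2 (-1.42, from -2.61 to -4.03), Anxa1 (-1.34, from -2.06 to -3.40), Apoe (-0.78, from -1.39 to -2.17), Dmrta2 (1.30, from 1.04 to 2.34), Fgf13 (0.70, from 0.05 to 0.75), Foxc1 (-1.69, from -0.76 to -2.45) and Krt18 (-0.89, from -1.86 to -2.75). It was also larger for Mt1 (-0.95, from -1.66 to -2.60), Rspo2 (2.10, from 1.65 to 3.75), Rspo3 (2.37, from 0.95 to 3.32) and Zic1 (1.64, from 0.99 to 2.62).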

How the results depend on the processing

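Of 255 genes named in the report 203 passed. Of these, 143 kept their direction and stayed past the threshold under every alternative run, 60 missed it under at least 1, 47 of them without at least 1 array, and 0 changed direction. The 1093 genes that passed became 670 with a pseudocount of 1, 1735 with 64 and 588 with the 6 day 4 arrays alone, and ran from 659 to 783 without 1 array. The 2034 probe sets became 1189 with a pseudocount of 1, 1044 with the 6 arrays alone, and 1125 to 1509 without 1 array, the lowest being 1232 without HM1 replicate 2 and 1125, 1278 and 1241 without CAG150 replicates 1, 2 and 3. The 295 probe sets of the interaction became 111 with a pseudocount of 1, 643 with 64, 470 with a variance trend, and 163 to 215 without 1 array, with 192 and 196 without HM1 day 4 replicates 1 and 3, 163 without CAG150 day 4 replicate 2, and 192 and 175 without CAG150 day 6 replicates 1 and 3. With the replicate number as a block, 898 genes and 1648 probe sets passed at day 4 and 191 probe sets in the interaction. The deviations of same-numbered day 4 arrays correlated at 0.113, 0.036 and 0.057, so the numbers were not taken to pair the arrays.

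A difference near 0 changed sign for some genes that did not pass: with quantile normalization Ccng1 (0.06), Ddx3x (0.05), Dnmt1 (0.03), Hspa8 (0.00), Mrtfa (-0.05), Msh6 (0.01), Pcna (0.00), Smtn (-0.03), Tuba1a (0.00) and Vim (0.00), with median centring Fgf13 (-0.01), Mest (-0.01), Mrtfa (-0.06), Prdx2 (-0.05), Scd2 (-0.06) and Smtn (-0.03), and with the mean of all probe sets Cdh2 (-0.02), Cnn3 (0.04), Cnp (0.13), Ddx3x (0.16), Dnmt1 (0.05), Hspa8 (0.05), Lef1 (0.05), Nes (0.31) and Ocln (0.04). Without 1 array the sign was not fixed for Cnp (-0.32 to 0.08), Ddx3x (-0.10 to 0.04), Dnmt1 (-0.04 to 0.04), Hprt (-0.11 to 0.12), Lef1 (-0.18 to 0.06), Mrtfa (-0.07 to 0.11), Msh6 (-0.03 to 0.01), Myocd (-0.24 to 0.11), Ocln (-0.13 to 0.03), Prdx2 (-0.08 to 0.09), Scd2 (-0.06 to 0.04), Smtn (-0.05 to 0.11), Tfcp2l1 (-0.45 to 0.06), Usp9y (-0.02 to 0.24) and Vim (-0.17 to 0.01). The cause was not tested. With 3 arrays per group and 1 line of each kind, the precision is limited, and most for genes near background.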
